A study of Drosophila melanogaster with 3 samples.

Results

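The *CycC* and *Cdk8* genes lie on different arms of the third chromosome, and the 6 genes described here are their neighbours. They were chosen by symbol and position, not by their values, from the 17896 genes of the deposited count table. *I-2* and *RasGAP1* flank *Cdk8* on chromosome 3L, and *CG33332*, *Rrp6*, *UQCR-C1* and *Dph2* lie beside *CycC* on chromosome 3R. All 6 symbols were matched to a gene identifier.

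RNA was sequenced from 3 libraries of whole third-instar larvae at the wandering stage. Each library pooled 10 larvae homozygous for *CycC* Y5, a null allele of the cyclin C gene that was carried over a balancer chromosome and outcrossed to the w1118 strain. Homozygotes receive CycC and CDK8 from their mothers and die before adulthood, so the larvae start from a maternal supply. The sex of the larvae is not given in the labels. Libraries of w1118 and of *Cdk8* K185 larvae were not analysed here, so every value below is a level or a spread within *CycC* Y5 larvae, and no difference between genotypes is given.

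CDK8 and its partner CycC form the kinase pair of the Mediator complex, which connects transcription factors with RNA polymerase II. A gene next to a mutated locus is of interest because a lesion can reach into it, or into sequence that it shares with the mutated gene. The study notes that the *Cdk8* K185 deletion also removes part of *I-2*, and it used *RasGAP*, the gene on the other side of *Cdk8*, as a control in its qPCR assays.

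The neighbours have unrelated functions. *I-2* encodes inhibitor 2 of protein phosphatase 1 (PP1), and *RasGAP1* encodes a GTPase-activating protein that switches Ras off. *Rrp6* encodes a nuclear 3′ to 5′ exoribonuclease of the RNA exosome. *UQCR-C1* encodes a core subunit of complex III of the mitochondrial respiratory chain. *Dph2* belongs to the pathway that makes diphthamide, a modified histidine of translation elongation factor 2. *CG33332* is known only by its annotation symbol.

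Libraries 1, 2 and 3 held between 10157528 and 12125243 counts on genes. Levels are given as CPM, counts scaled to these totals. The 20 most counted genes took 25.3% of library 3, against 20.2% of library 1 and 19.7% of library 2, and edgeR's scaling by trimmed means (TMM) gave factors of 1.04, 1.07 and 0.894. Of 14 markers of fat body, salivary gland, midgut, muscle, neurons and hemocytes, 13 had more than 3 counts in every library. The exception was the neuronal gene *elav*, at 1, 0 and 1 counts, which shares 98.6% of its span with other genes.

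*CycC* itself had 0 counts in each of the 3 libraries. With 0 counts, a level of up to 3 counts remains possible, at most 0.294, 0.295 and 0.247 CPM by library. These limits cover counting error only. *CycC* (FBgn0004597) spans 14889004 to 14890205 on the minus strand of 3R in BDGP6, the release to which dm6 coordinates belong. *Cdk8*, which is intact by genotype, had 154, 145 and 134 counts and a level of 13.5 ± 2.14 CPM (SD, n = 3).

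**Figure D1:**
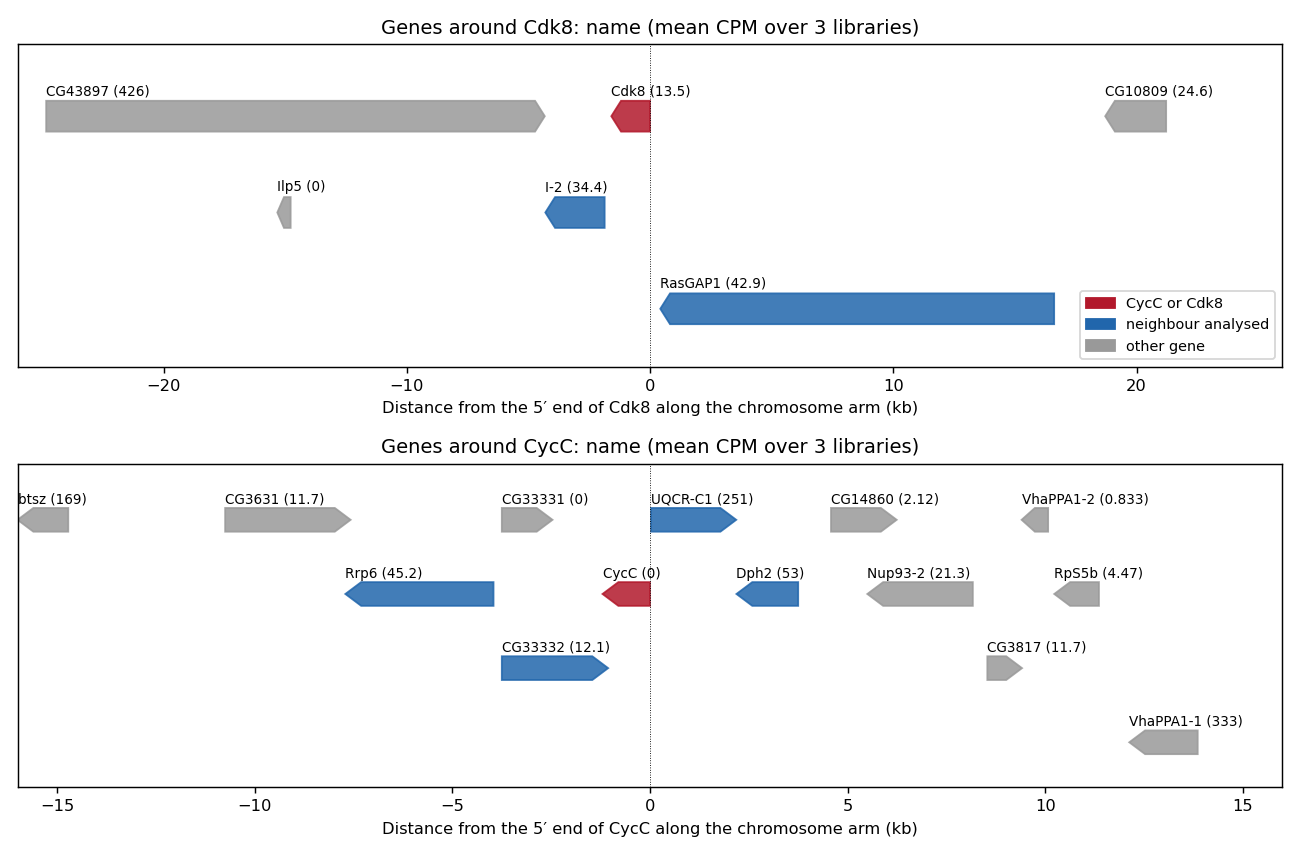
Genes within 20 kb of *Cdk8* (top) and *CycC* (bottom), drawn to scale as arrows in the direction of transcription, with distance in kb from the 5′ end of each locus on the x axis and the mean CPM over 3 libraries in parentheses; overlapping or crowded genes are set on separate lines, and *btsz* runs on past the left edge. *CycC* stands at 0 between *CG33332* at 12.1 CPM and *UQCR-C1* at 251 CPM.

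The neighbours stand to their loci in different ways. *RasGAP1*, *Cdk8* and *I-2* all lie on the minus strand and follow each other in that order, with a gap of 422 bp between *RasGAP1* and *Cdk8* and of 274 bp between *Cdk8* and *I-2*. *UQCR-C1* lies head to head with *CycC*: the genes run apart from 5′ ends 26 bp from each other. *CG33332* runs towards *CycC* from the other side, and the ends of the genes overlap by 143 bp. *Dph2* meets *UQCR-C1* tail to tail across a gap of 4 bp, and its 5′ end is 3749 bp from that of *CycC*. *Rrp6* is separated from *CycC* by 2757 bp that hold *CG33332*, and lies head to head with *CG33332* across 209 bp.

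*UQCR-C1* (FBgn0038271, 3R, 14890231 to 14892387, plus strand, 6 exon blocks) was the most strongly counted neighbour. It had 2368, 2597 and 3227 counts in libraries 1, 2 and 3, which is 232, 256 and 266 CPM and a mean of 251 ± 17.4 CPM (SD, n = 3). Its transcript was therefore abundant although the adjoining *CycC* gene had no counts. Per kb of span, *UQCR-C1* exceeded the limit that a count of 0 allows for the unshared part of *CycC* at least 388-fold in library 1, 425-fold in library 2 and 528-fold in library 3, with a floor of 3 counts per library.

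The contrast between *UQCR-C1* and *CycC* was set beside other close head-to-head pairs, a comparison chosen after the values were seen. The table holds 297 pairs of such genes at most 100 bp apart in which each gene shares less than 20% of its span. In 13 of them, or 4.38%, a gene was at 0 in every library while its partner was counted. The 13 include the pair of *CycC* itself, and these larvae are homozygous for a null allele of *CycC*. No lesion is described for the other pairs, so the pair of *CycC* is unlike them by genotype. Several others hold a mitochondrial tRNA, a microRNA, a long non-coding RNA or a histone pseudogene, so the set is not limited to protein-coding genes. By mean CPM per kb of span, *UQCR-C1* ranked below only the mitochondrial gene *mt:CoI* among the counted partners, at 117 CPM per kb against 56.2 for the next gene, *robl*.

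*CG33332* (FBgn0067629, 3R, 14886456 to 14889146, plus strand, 3 exon blocks), at the other end of *CycC*, had 147, 118 and 124 counts. Its level was 14.4, 11.6 and 10.2 CPM, a mean of 12.1 ± 2.13 CPM (SD, n = 3), the lowest of the 6 neighbours by count. *CG33331* shares the start of *CG33332*, lies wholly inside it over 1284 bp on the same strand and was listed at 0 in every library, as were 3518 of the 3520 genes inside the span of another. Together with the 143 bp shared with *CycC*, 53.0% of the span of *CG33332* is shared, so its level is uncertain. Whether reads in the stretch shared with *CG33331* were counted for *CG33332* or for no gene is not given. The overlap with *CycC* is antisense, and the strand setting of the counting is not given, so reads of the pair cannot be told apart there.

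*Rrp6* (FBgn0038269, 3R, 14882498 to 14886246, minus strand, 5 exon blocks) had 466, 527 and 460 counts, or 45.7, 51.9 and 37.9 CPM, a mean of 45.2 ± 6.99 CPM (SD, n = 3). It shares 134 bp, 3.57% of its span, with *CG3631*. *Dph2* (FBgn0038272, 3R, 14892392 to 14893954, minus strand, 2 exon blocks) had 572, 557 and 582 counts, or 56.1, 54.8 and 48.0 CPM, a mean of 53.0 ± 4.35 CPM (SD, n = 3). Library 3 was the lowest for both genes on this scale.

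Beside *Cdk8*, *I-2* (FBgn0028429, 3L, 9834367 to 9836805, minus strand, 6 exon blocks) had 375, 362 and 374 counts. These are 36.8, 35.6 and 30.8 CPM, a mean of 34.4 ± 3.15 CPM (SD, n = 3). *RasGAP1* (FBgn0004390, 3L, 9839093 to 9855285, minus strand, 5 exon blocks) had 458, 517 and 400 counts, or 44.9, 50.9 and 33.0 CPM, a mean of 42.9 ± 9.12 CPM (SD, n = 3). Relative to its mean on library totals, *RasGAP1* had the widest spread of the 6 neighbours, with an SD of 21.2%, and *UQCR-C1* the narrowest, with 6.91%. This ranking did not hold on TMM library sizes, where *UQCR-C1* had the widest spread, with an SD of 15.7%, and *RasGAP1* had 12.5%.

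**Figure D2:**
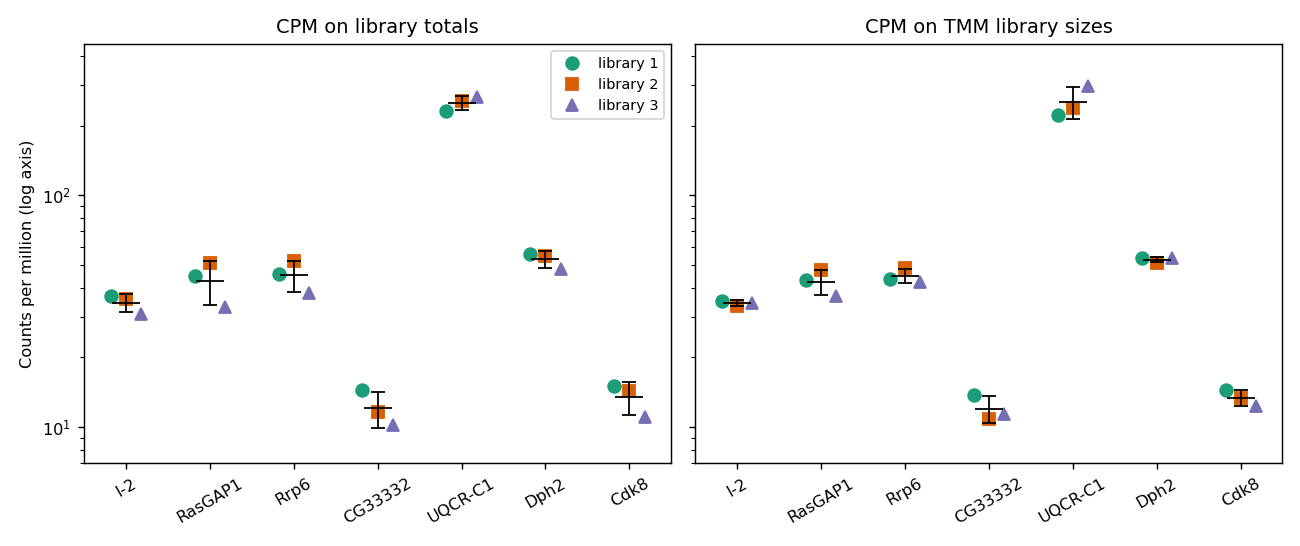
Level of each neighbour and of *Cdk8* in each of the 3 libraries (symbols), with the mean and SD (bars), in CPM on a log axis, for library totals on the left and TMM library sizes on the right. On totals library 3 is the lowest for all genes shown but *UQCR-C1*, and on TMM sizes *UQCR-C1* rises to 298 CPM in library 3 while *Dph2* and *I-2* are nearly level.

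Part of this pattern follows the scaling. Library 3 was compared with the average of libraries 1 and 2 over 9822 genes: the median log2 ratio was -0.26 on library totals and -0.02 on TMM library sizes. On the TMM scale *I-2* stood at 35.2, 33.3 and 34.5 CPM and *Dph2* at 53.7, 51.2 and 53.7 CPM, so that neither was lowest in library 3. *UQCR-C1* stood at 222, 239 and 298 CPM, highest in library 3 on both scales. *RasGAP1* stood at 43.0, 47.5 and 36.9 CPM, lowest in library 3 on both scales.

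Whether these spreads exceeded counting noise was asked with a chi-square test across the libraries on TMM library sizes. It covered the 9822 genes that had at least 10 counts in each library, p-values were adjusted by the Benjamini-Hochberg method, and a gene was called at an adjusted p under 0.05. It compares libraries of 1 genotype and no conditions. The test called 40.0% of all genes, and among the neighbours it called *UQCR-C1* and *RasGAP1*, 2 of 6. A count of 2 of 6 is close to that background and is no result about the neighbours as a group.

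*UQCR-C1* varied between libraries (adjusted p = 1.1e-28, chi-square test), with a log2 ratio of 0.42 from the highest library to the lowest and a 95% counting interval of 0.35 to 0.50. *RasGAP1* varied as well (adjusted p = 0.0027), with a log2 ratio of 0.36 and an interval of 0.18 to 0.55. The other 4 neighbours did not pass the test at this depth. The adjusted p was 0.17 for *Rrp6*, 0.21 for *CG33332*, 0.75 for *Dph2* and 0.82 for *I-2*. The interval of the log2 ratio reached up to 0.24 for *Dph2*, 0.29 for *I-2*, 0.37 for *Rrp6* and 0.70 for *CG33332*, which had the fewest counts. The libraries of each ratio were picked by their values, so the ratios lean upwards and the intervals do not hold at 95%. That of *Rrp6* started at 0.01 although the test did not call the gene.

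These calls rested on library 3. Without library 3 the adjusted p was 0.067 for *UQCR-C1* and 0.33 for *RasGAP1*, and none of the 6 neighbours was called, while 16.7% of all genes were. *RasGAP1* was not called without library 2 either (adjusted p = 0.074), where 32.5% of all genes were called. Without library 1 both genes were called, as were 29.7% of all genes. With library totals in place of TMM sizes the test called 5 neighbours, all but *I-2*, against 60.3% of all genes.

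The biological coefficient of variation is edgeR's estimate of the spread beyond counting noise, drawn towards the values of other genes. It ranged from 0.116 for *Dph2* and 0.117 for *I-2* to 0.174 for *UQCR-C1*. It was 0.123 for *Rrp6*, 0.140 for *CG33332* and 0.141 for *RasGAP1*. The median over all tested genes was 0.142. *RasGAP1* and *CG33332* lay close to this median, *Dph2*, *I-2* and *Rrp6* below it and *UQCR-C1* above it. The common value that edgeR fitted over all tested genes was 0.171, close to that of *UQCR-C1*. For *I-2* and *Dph2* the SD on TMM library sizes was only 2.85% and 2.74% of the mean, and neither was called. Their coefficients are therefore not spreads measured in these genes alone.

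Ratios within a library do not depend on its scaling. Between the tail-to-tail neighbours, the log2 count ratio of *UQCR-C1* to *Dph2* was 1.58 in library 1, 1.76 in library 2 and 2.01 in library 3 per kb of span, so the lead of *UQCR-C1* was widest in library 3. The same ratio of *UQCR-C1* to *Rrp6* was 3.28 ± 0.28 (SD, n = 3) and that of *UQCR-C1* to *CG33332* was 4.71 ± 0.35 (SD, n = 3). At the other locus *I-2* exceeded *RasGAP1* per kb of span by a log2 ratio of 2.43 ± 0.21 (SD, n = 3). By count the order was the opposite, at -0.30 ± 0.21 (SD, n = 3), since *RasGAP1* spans 16193 bp and *I-2* spans 2439 bp. Each of these 4 pairs had a single direction in 3 of 3 libraries (exact permutation of signs, two-sided, p = 0.25, and 0.25 adjusted over the 4 pairs, where 3 libraries can give no smaller p).

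Per kb of listed span the order of the neighbours was *UQCR-C1* at 117 ± 8.06, *Dph2* at 33.9 ± 2.79, *I-2* at 14.1 ± 1.29, *Rrp6* at 12.0 ± 1.86, *CG33332* at 4.49 ± 0.793 and *RasGAP1* at 2.65 ± 0.563 CPM per kb (SD, n = 3). Among 12719 counted genes that lie inside no other, 96.4% were lower than *UQCR-C1* on this scale, 88.3% lower than *Dph2* and 40.5% lower than *RasGAP1*. The smallest step of the order was that from *I-2* to *Rrp6*, a log2 ratio of 0.24 ± 0.14 (SD, n = 3), and the libraries of these genes overlapped, at 12.6 to 15.1 for *I-2* and 10.1 to 13.8 CPM per kb for *Rrp6*. At the other 4 steps the libraries of the genes did not overlap. All 5 steps had the same direction in 3 of 3 libraries, with an exact permutation p of 0.25, the smallest possible, and 0.25 adjusted over 5 pairs. The order was taken from the means of these same 3 libraries, so the direction of each mean step was fixed beforehand and the p-values do not test the order.

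**Figure D3:**
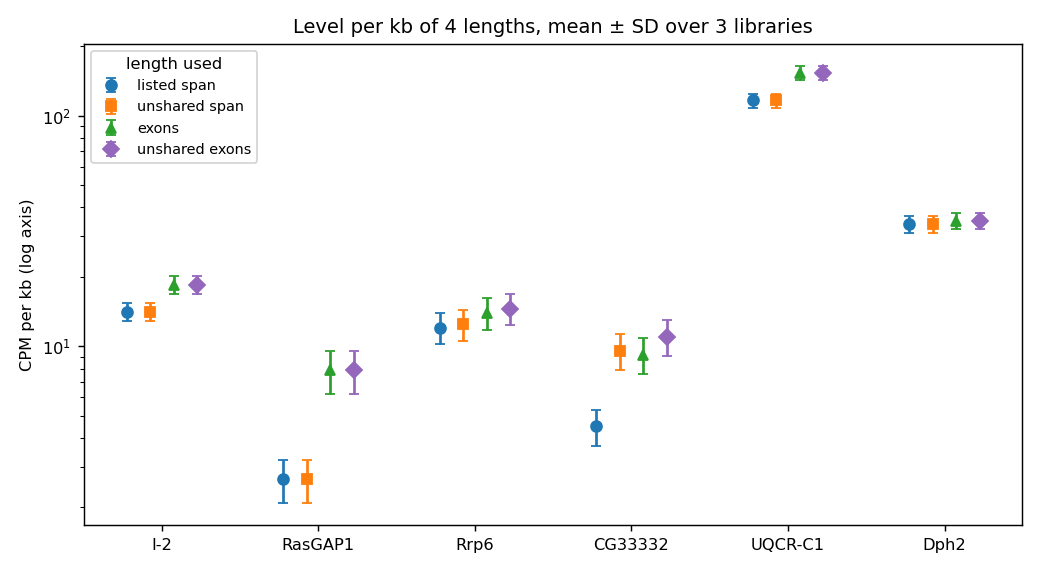
Level of each neighbour in CPM per kb (log axis, mean ± SD over 3 libraries) with 4 choices of length: the listed span, the span shared with no other gene, the summed exons, and exons shared with no other gene. The order of the 6 means is the same with each length, and *CG33332* rises from 4.49 to 11.0 CPM per kb and *RasGAP1* from 2.65 to 7.90.

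The listed length of every gene is its whole span, introns included, which matters most for *RasGAP1*, whose exons make up 33.6% of its span, and for *CG33332*, with 48.9%. Per kb of exons *RasGAP1* was at 7.90 ± 1.68 and *CG33332* at 9.19 ± 1.62 CPM per kb (SD, n = 3), so the gap between them was smaller than either SD. With exons shared with no other gene, a length chosen after the values were seen, *CG33332* was at 11.0 ± 1.94 and *Rrp6* at 14.6 ± 2.25 CPM per kb (SD, n = 3). The order of the 6 means was the same with each of these lengths, but with summed exons library 2 went the other way for the lowest pair, at 8.83 for *CG33332* and 9.37 CPM per kb for *RasGAP1* (exact permutation p = 0.5, two-sided). Without any length correction *I-2* fell below *Rrp6* and *CG33332* below *RasGAP1*.

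The neighbours were then set beside genes that act with them, from lists chosen by function. Levels per kb of these genes use the listed span, introns included. Levels per kb of exons were not computed for the lists, so orders within a list may depend on introns. Of 10 complex III genes, *UQCR-C1* had the highest level per kb of span, and the other core subunit, *UQCR-C2*, came next at 82.8 CPM per kb. *UQCR-14*, which lies wholly inside another gene, was at 0 in every library and could not be measured. The log2 count ratio of *UQCR-C1* to *UQCR-C2* was 0.65, 0.62 and 0.57 in libraries 1, 2 and 3, a range narrower than that of *UQCR-C1* to its chromosomal neighbour *Dph2*. Of the 9 complex III genes tested, 7 varied between libraries and all 7 were highest in library 3, a combination met by 17.8% of all genes. *UQCR-C1* is itself among the 9 and the 7, and the share of all genes is not matched for count depth. The median log2 ratio of library 3 to libraries 1 and 2 over the 9 was 0.39, against -0.02 over all genes tested, and *UQCR-C1* was at 0.37. Without library 3, 1 of the 9 varied, a share close to the 16.7% of all genes. On library totals 4 of the 9 varied, below the share of 60.3% of all genes, and the median was 0.15, against -0.26 over all genes.

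Tissue markers also varied between libraries, in different directions. Of the 13 markers tested 12 varied, where 40.0% of all genes tested did. These shares are not matched for depth, because the test calls smaller spreads at higher counts. *Lsp1beta* had 124332, 119201 and 280601 counts, while *nSyb*, the marker tested and not called, had 253, 266 and 223. On TMM library sizes the 7 that were highest in library 3 were those of fat body, midgut and muscle. The 5 that were highest in library 1 were those of salivary gland and hemocytes. On library totals *Lsp2* of fat body and *Jon65Aiii* of midgut were highest in library 1 instead. On library totals, the scale of the sums given here, the 14 markers summed to 40833, 34266 and 56258 CPM in libraries 1, 2 and 3. Most of this came from fat body. The muscle genes *Mhc* and *Act57B* summed to 2371, 2670 and 4842 CPM, highest in library 3. The salivary gland genes *Sgs3*, *Sgs7* and *Sgs8* summed to 5784, 2512 and 3518 CPM, and the hemocyte genes *NimC1* and *Hml* to 197, 160 and 141 CPM, both highest in library 1. Fewer cells of a type and less RNA per cell cannot be told apart in such bulk samples. The part of tissue composition in the spread of *UQCR-C1* and of complex III was not tested.

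**Figure D4:**
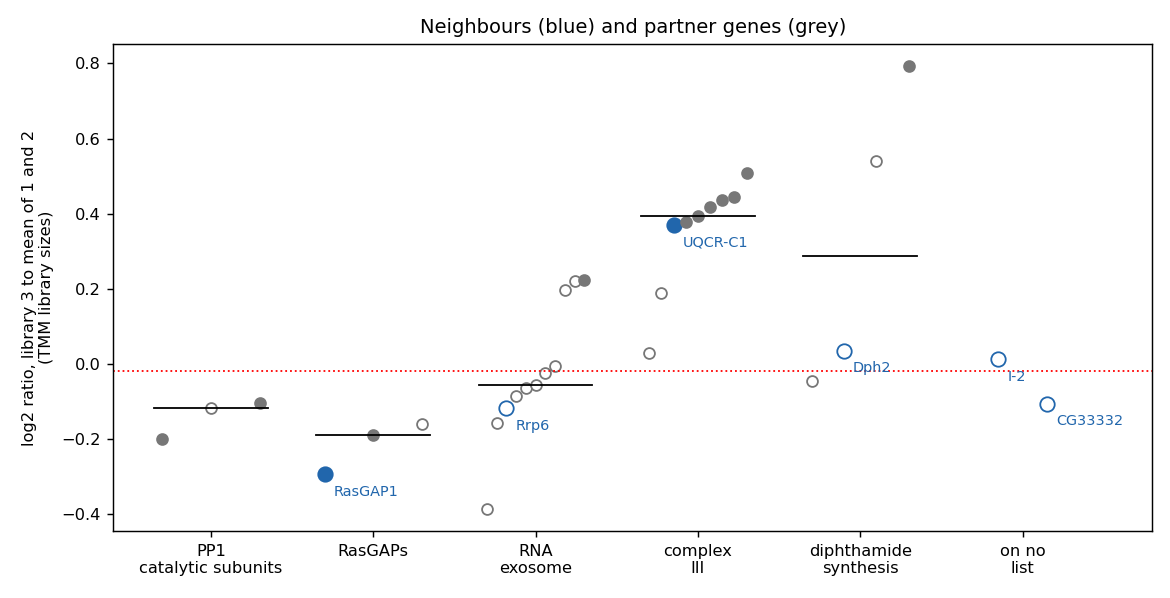
Log2 ratio of library 3 to the average of libraries 1 and 2 on TMM library sizes for the neighbours (blue, named) and the tested genes of the lists (grey), with filled symbols for genes that varied between libraries, black lines at list medians and a dotted red line at the median of all tested genes. *UQCR-C1*, at 0.37, lies close to the complex III median of 0.39, in which it is included, and *Dph2* and *I-2* lie close to the dotted line.

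*Rrp6* was close in level to *Dis3*, the other exoribonuclease of the exosome. Their log2 count ratio was 0.03, 0.08 and 0.01 in libraries 1, 2 and 3, or 0.07 on average per kb of span. Of 12 exosome genes 11 were tested and 1 varied between libraries, *Rrp47*, where 40.0% of all genes tested did. These shares are not matched for depth, and the test misses larger spreads at lower counts. *Csl4*, at 158, 175 and 128 counts, was not called (adjusted p = 0.061, chi-square test). Its log2 ratio of library 3 to libraries 1 and 2 was -0.39, against -0.29 for *RasGAP1*, which was called. *Rrp40* could not be measured, with 1, 0 and 1 counts and 87.8% of its span shared with other genes.

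*Dph2*, at 33.9 ± 2.79 CPM per kb (SD, n = 3), had the highest level per kb of the 5 diphthamide genes found in the table. It was followed by *Dph5* at 31.8 CPM per kb, a lead smaller than that SD. *Dph4*, which lies wholly inside another gene, was at 0 in every library and could not be measured. Only *Dph1* varied between libraries among the 4 tested, with 208, 279 and 424 counts (adjusted p = 2.2e-16, chi-square test). The share of all genes tested that varied was 40.0%, and 4 genes are too few to set against it. *Dph1* and *Dph2* proteins act together in the opening step of the pathway in yeast. The log2 count ratio of *Dph2* to *Dph1* went from 1.46 in library 1 to 1.00 in library 2 and 0.46 in library 3, a wider range than that of *Dph2* to the adjacent *UQCR-C1*.

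*I-2* lay within the range of the PP1 catalytic subunits per kb of span. *Pp1-87B* was at 133, *Pp1alpha-96A* at 14.9 and *flw* at 2.60 CPM per kb, against 14.1 for *I-2*. *Pp1-13C*, which lies wholly inside another gene, was at 0 in every library. The log2 ratio of *I-2* to *Pp1-87B* was -3.23 on average. Of the 3 PP1 genes tested 2 varied between libraries, where 40.0% of all genes tested did. *RasGAP1* had the lowest level per kb of listed span of the 3 RasGAP genes, below *vap* at 15.1 and *Nf1* at 3.70 CPM per kb. Both *RasGAP1* and *Nf1* varied. Lists of 3 genes are too few to set against the 40.0% of all genes. By count *RasGAP1* was below *Nf1* in libraries 1 and 3 and above it in library 2, with 517 counts against 474.

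Within the kinase locus on 3L, *Cdk8* lay between its neighbours per kb of span, at a log2 ratio of -0.75 to *I-2* and 1.69 to *RasGAP1*. The surroundings of both loci, with the neighbours included, were transcribed. The 20 kb windows hold 2 of the neighbours at *Cdk8* and 4 at *CycC*, so the medians given here are not independent of the neighbours. Of the 4 genes other than *Cdk8* that lie within 20 kb of it and inside no other gene, the median level was 38.7 CPM and the lowest 24.6 CPM. Around *CycC* the median of 12 such genes was 16.7 CPM and the lowest 0.833 CPM. The median over all such genes was 10.1 CPM on 3L and 11.4 CPM on 3R, of which 8.78% and 8.45% were at 0. *CycC* was the only gene within 20 kb, outside those nested in another gene, that was at 0 in every library.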

How the data were processed

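The authors deposited raw read counts per gene, as whole numbers without normalization. The labels' processing notes name STAR and dm6; the counting program, its strand setting and the treatment of reads with several matches are not given in the sources used here. The coordinates of 99.7% of the 17896 genes equal those of BDGP6.54, and symbols were found for 17864. The columns c_1, c_2 and c_3 were read as the *CycC* Y5 libraries by initial and number. A further 6 columns match no sample described here and were not used. The table of transposons was not used because its column names and values are out of step, so library totals come from the gene table alone; the plan had named both tables.

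TMM library sizes and dispersions were computed with edgeR 4.0.16, and alternative size factors and dispersions with DESeq2 1.42.0 (R 4.3.3). CPM and the other steps were computed with Python 3.11.15, NumPy 2.4.6, pandas 2.3.3, SciPy 1.17.1 and matplotlib 3.10.9. There is 1 genotype, so edgeR's quasi-likelihood test was not applied. Spread was tested by chi-square over genes with at least 10 counts in every library, with Benjamini-Hochberg adjustment at 0.05, and ratios by exact sign-flip permutation. The test and the dispersion fit were tested on simulated data. Libraries are pools of 10 larvae, and whether they came from separate cultures is not given, so p-values measure only the spread between these samples. The genes and lists were chosen with earlier results of these data known. The named genes are the 6 neighbours, *CycC*, *Cdk8* and genes that overlap a neighbour; genes of the lists and head-to-head partners that are named were chosen after their values were seen. *Dph6* was not matched. Alternatives were other scalings, filters, thresholds, lengths and windows, and each library left out in turn.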

Additional observations from a re-analysis of the deposited data

How the results depend on the processing

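Alternatives were set in advance, except lengths without shared parts. A total over both tables was not tried. No paired analysis was possible because *CycC* Y5 is the only group.

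Without the 20 most counted genes the total is smaller in every library, which raised the levels to 43.9 CPM for *I-2*, 54.6 for *RasGAP1*, 15.4 for *CG33332*, 57.5 for *Rrp6*, 322 for *UQCR-C1* and 67.6 for *Dph2*. On library totals 5919 genes varied between libraries in place of 3932, and 5 neighbours in place of 2, with adjusted p of 0.028 for *CG33332*, 1.7e-05 for *Rrp6* and 0.029 for *Dph2*; the median of all genes is offset on that scale. Leaving out each library gave 1653 to 3207 varying genes and 0 to 2 varying neighbours, and adjusted p from 0.0013 to 0.33 for *RasGAP1* and from 5.2e-26 to 0.067 for *UQCR-C1*. Without length correction the log2 ratio of *I-2* to *Rrp6* was -0.38 and that of *CG33332* to *RasGAP1* was -1.82, and per kb of span that of *I-2* to *RasGAP1* was 2.43, by construction of the lengths. The median level around *CycC*, with the neighbours included, was 12.1 CPM within 10 kb and 11.7 CPM within 50 kb. DESeq2 size factors, other count minimums and a threshold of 0.01 changed no call of a neighbour.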
